A study of Rattus norvegicus with 6 samples.

Results

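The genes described here are 10 rat genes of extracellular matrix breakdown, the matrix metalloproteinases Mmp2, Mmp3, Mmp7, Mmp9, Mmp12, Mmp13 and Mmp14 and the tissue inhibitors Timp1, Timp2 and Timp3. They were chosen by name: every probe that is not a control and whose accession belongs to one of the 10 genes was taken, which gave 11 of the 30367 probes on the array, and the 10 genes are among 15168 that could be named. RNA was taken from the colons of 3 S.LEW congenic rats, called C1, C2 and C3, and of 3 S rats, called S1, S2 and S3, and each was labelled in 1 color and hybridized to its own Agilent oligonucleotide array. The S rat is the inbred Dahl salt-sensitive strain (SS/Jr), which develops hypertension, and the S.LEW(10)x12x2x3x5 congenic strain has the S genome except for a short piece of Lewis chromosome 10. All 6 rats were males on a 0.3% NaCl diet. Each was given azoxymethane (AOM), a colon carcinogen, at 15 mg per kg in 2 weekly injections that began at 6 weeks of age, and colon was taken at 30 weeks. No untreated rats are among these arrays, so each comparison is between strains that both received the carcinogen. The paper used the arrays to ask which colon transcripts differ between the strains. The colon sample is a mixture of epithelium, muscle, stroma and immune cells, and how much tumor each sample held is not given in the sources used here.

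Matrix metalloproteinases are zinc-dependent proteases that cut collagens, elastin, basement membrane and other proteins outside the cell. Most are made as inactive proenzymes, are activated when the propeptide is removed, and are blocked by the Timp proteins, which bind the active site. The family is divided by substrate and structure into gelatinases (Mmp2 and Mmp9), a stromelysin (Mmp3), a matrilysin (Mmp7), the macrophage elastase (Mmp12), a collagenase (Mmp13) and a membrane-bound member (Mmp14). In the colon, stromal cells, smooth muscle, epithelium and infiltrating leukocytes can all make members of the family, and metalloproteinases have long been studied in tissue remodelling around colon tumors.

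Mmp13, Mmp12, Mmp3 and Mmp7 lie in one cluster. In RefSeq's annotation of the GRCr8 assembly, the 10 neighbouring protein-coding genes from Mmp13 to Mmp7 on chromosome 8 are all metalloproteinases, in the order Mmp13, Mmp12, Mmp1b, Mmp3, Mmp1, Mmp10, Mmp8, Mmp27, Mmp20 and Mmp7. Mmp2 is on chromosome 19, Mmp9 on chromosome 3, Mmp14 on chromosome 15, Timp1 on chromosome X and Timp3 on chromosome 7. Timp2 is on chromosome 10, the chromosome of the Lewis segment, but 645 protein-coding genes separate it from Rffl, a gene that lies in the segment. Promoters were in hand for 7 of the 10 genes (Mmp3, Mmp7, Mmp12, Mmp13, Timp1, Timp2 and Timp3). The 150 bases before the annotated start of the 4 cluster genes are printed because this is where they share short motifs, and those of Timp1 because it is the inhibitor whose strains did not overlap. Sequences are from RefSeq, GRCr8, and capitals mark a match to the AP-1 motif, the binding sequence of Fos and Jun proteins (TGAGTCA, or TGACTCA on the other strand).
Mmp13 (chr8:12782679-12782828, plus strand): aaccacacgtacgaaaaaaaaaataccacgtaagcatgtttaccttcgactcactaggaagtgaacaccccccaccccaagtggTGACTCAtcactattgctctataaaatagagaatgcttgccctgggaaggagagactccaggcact
Mmp12 (chr8:12866502-12866651, plus strand): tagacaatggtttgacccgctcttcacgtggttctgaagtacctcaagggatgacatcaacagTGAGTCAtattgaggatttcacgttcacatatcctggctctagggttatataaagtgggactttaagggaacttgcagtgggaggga
Mmp3 (chr8:12925131-12925280, plus strand): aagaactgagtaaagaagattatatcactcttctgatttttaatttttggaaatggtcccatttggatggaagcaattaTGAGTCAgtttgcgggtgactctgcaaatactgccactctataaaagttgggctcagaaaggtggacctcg
Mmp7 (chr8:13132893-13133042, plus strand): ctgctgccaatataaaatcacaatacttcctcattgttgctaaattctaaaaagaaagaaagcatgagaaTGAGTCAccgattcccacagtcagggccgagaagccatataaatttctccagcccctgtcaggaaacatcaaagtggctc
Timp1 (chrX:3771123-3771272, minus strand): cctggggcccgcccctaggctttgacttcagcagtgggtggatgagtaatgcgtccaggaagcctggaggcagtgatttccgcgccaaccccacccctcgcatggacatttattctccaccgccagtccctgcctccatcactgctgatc

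AP-1 letters were present in all 4 cluster genes, with the first base 71 bases before the start in Mmp3, 80 in Mmp7, 87 in Mmp12 and 66 in Mmp13, where they are on the minus strand. None of the 3 Timp promoters held these exact letters in the 250 bases searched. Variants of the motif were not searched, so letters close to it, such as TGAGTAA in the printed Timp1 sequence, are not counted. Of all 33469 rat promoters of this length, 4.05% held an AP-1 match on either strand. A TATA match (TATAAA, or TTTATA on the other strand) was also found in the same 4 promoters, with the nearest one 32 to 47 bases before the start, and 12.9% of all promoters held one. An ETS match (AGGAAG, or CTTCCT on the other strand) was found in Mmp3, Mmp7, Mmp13 and Timp1, against 29.5% of all promoters. A GC box (GGGCGG, or CCGCCC on the other strand) was found in Timp1, Timp2 and Timp3 and in none of the 4 cluster genes, against 30.5% of all promoters. None of these matches overlapped another. A match is a description of the letters and was not tested as a binding site.

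**Figure D1:**
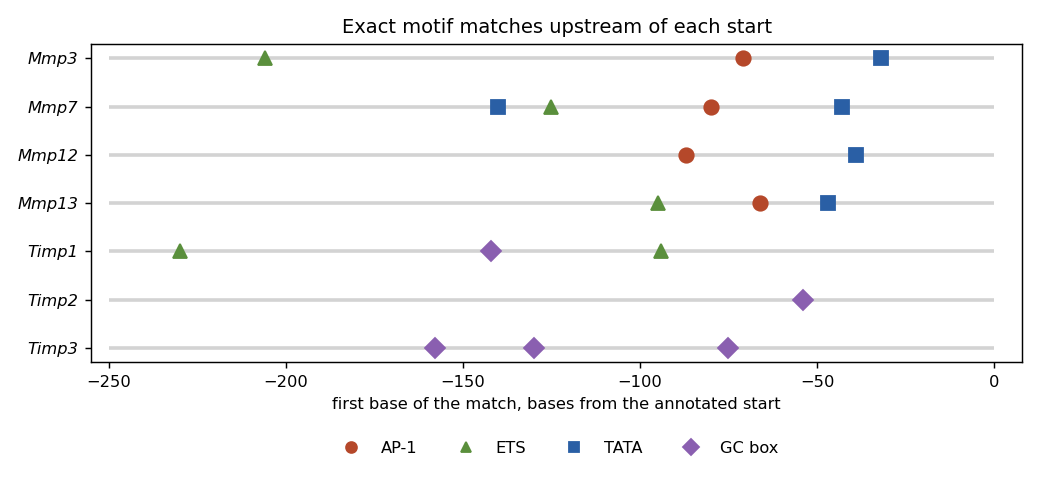
Position of exact motif matches on either strand (x axis, bases from the annotated start to the first base of the match; y axis, gene) in the 250 bases upstream of 7 members. AP-1 (circles) and TATA (squares) matches stand in Mmp3, Mmp7, Mmp12 and Mmp13, and GC boxes (diamonds) in Timp1, Timp2 and Timp3; triangles are ETS matches.

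The values are the authors' log2 signals, quantile-normalized over the 6 arrays so that each array has the same distribution, and they cover 23997 probes. Of the members, 7 genes with 8 probes are in that table. Mmp3, Mmp12 and Mmp13 are outside it. Their probes were well above background on 2 of the 6 arrays each, and their values were normalized here from the scanner intensities in the same way. The Pearson correlation between the deposited values and those normalized here was at least 0.9999 across probes on each array. A probe counts as well above background on an array where the scanner software called more than 50% of its spots so. The probes of Mmp9, Mmp13, Mmp14 and Timp1 have 10 spots on each array, and the others have 1. The share of spots well above background was 73.8% to 87.6% per array, the median intensity ranged from 214 to 594, and no spot was saturated. The arrays S1 and S3 stand apart from S2 in the S strain: the mean of the lymphoid markers, centred on the 6 arrays, was 3.26 log2 in S1 and 3.18 in S3 but -1.88 in S2. C1 was read in 1 scan with all 3 S arrays, and C2 and C3 in another. Strains were compared with limma, with Benjamini-Hochberg adjustment over all probes of the table. A probe is called when its unadjusted p is under 0.05 and its change at least 2-fold, and the standard error (SE) and 95% interval are those of the same fit. The colon markers were present: all 11 tested epithelial markers and all 8 smooth muscle markers were well above background on all 6 arrays.

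No member gene was called in either direction. Among the 7 tested, the congenic strain had 0 called higher and 0 lower, and 0 had an unadjusted p under 0.05 by limma. Over all probes, 776 (3.23%) were called higher, 562 (2.34%) lower, 3115 (13.0%) had an unadjusted p under 0.05, and 0 had an adjusted p under 0.05 by limma. The methods' t-test also left 0 probes at an adjusted p under 0.05. The log2 difference was above 0 in 4 members (Mmp2, Mmp14, Timp2 and Timp3) and below 0 in 3 (Mmp7, Mmp9 and Timp1). The strains failed to overlap in 1 member, Timp1, and in 17.7% of all probes. With 3 rats against 3, a two-sided exact permutation test of a single gene cannot go below p = 0.1.

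**Figure D2:**
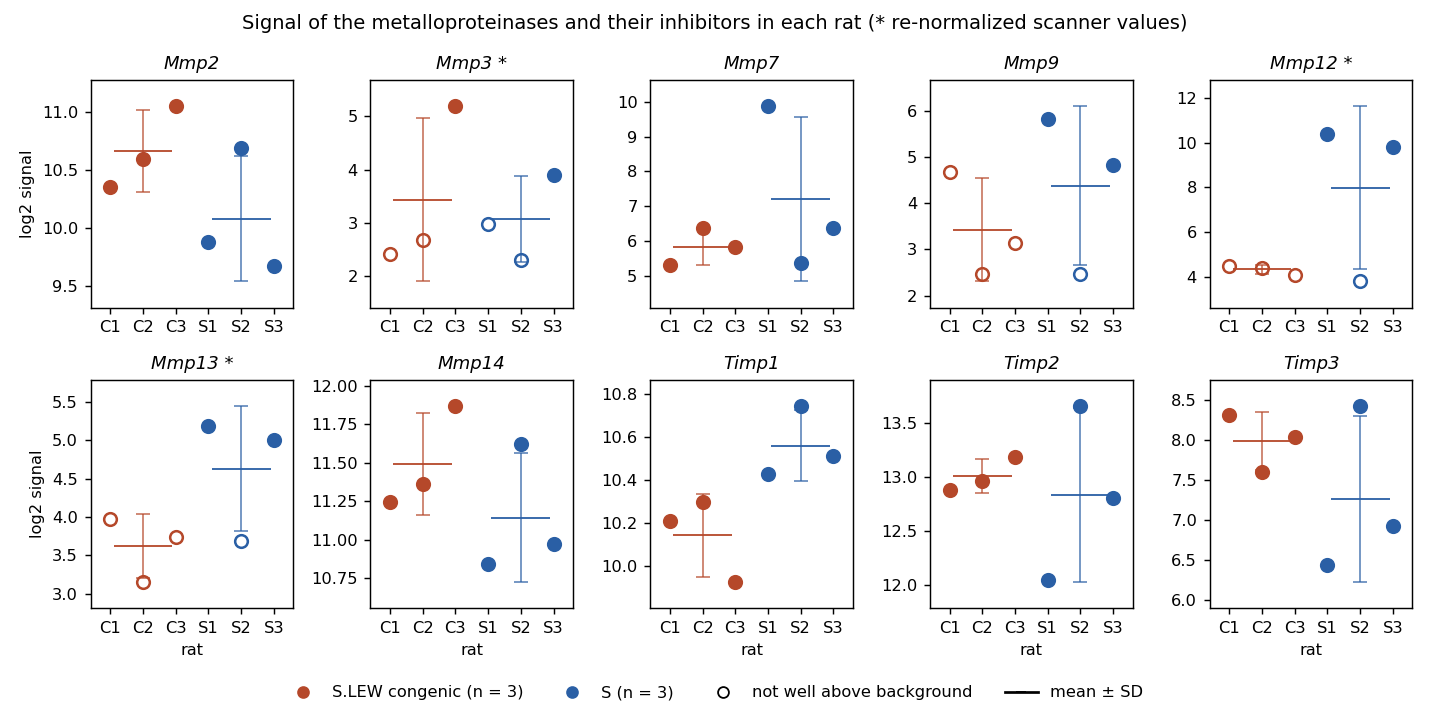
Log2 signal (y axis) of the 10 genes in each rat (x axis), with the brighter probe shown for Mmp2; points are rats, open where the probe was not well above background, and bars give the mean and SD of 3 rats. S1 and S3 are the lowest pair for Mmp2, Mmp14, Timp2 and Timp3, the highest pair for Mmp9, Mmp12 and Mmp13, S1 alone is high for Mmp7, and the strains are apart for Timp1.

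Mmp2, Mmp14 and Timp2 work together at the cell surface, where Timp2 bound to Mmp14 holds the Mmp2 proenzyme for activation. Mmp2, gelatinase A, read 10.35, 10.60 and 11.06 in C1, C2 and C3 and 9.88, 10.69 and 9.67 in S1, S2 and S3 on the log2 scale with its brighter probe. The S rats S1 and S3 were the lowest 2 of the 6, and S2 lay between C2 and C3. The congenic mean was 0.59 log2 above the S mean (SE 0.33, 95% interval -0.22 to 1.39, adjusted p = 0.460 by limma). The dimmer Mmp2 probe placed the 6 rats in the same order, from 7.65 in S3 to 9.46 in C3, with a difference of 0.63 (SE 0.42, adjusted p = 0.508 by limma).

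Mmp14, the membrane-type protease that activates Mmp2, read 11.25, 11.36 and 11.87 in the congenic rats and 10.84, 11.62 and 10.97 in the S rats. The order was nearly that of Mmp2, with S1 and S3 lowest and C3 highest. The difference was 0.35 log2 (SE 0.29, 95% interval -0.35 to 1.04, adjusted p = 0.575 by limma). The 10 spots of the Mmp14 probe had an SD of 0.02 to 0.07 log2 on an array, below the SD of 0.33 among congenic rats and 0.42 among S rats.

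Timp2 read 12.88, 12.96 and 13.19 in the congenic rats and 12.05, 13.65 and 12.80 in the S rats. S1 was the lowest and S2 the highest of the 6, so the S rats enclosed all 3 congenic rats. The SD was 0.16 among congenic rats and 0.80 among S rats. The difference was 0.17 log2 (SE 0.40, 95% interval -0.80 to 1.15, adjusted p = 0.844 by limma), and without S1 it was -0.22. Of the 7 tested members, Timp2 was the one whose difference changed sign when 1 rat was left out.

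Timp3, the inhibitor that stays bound to the matrix and also blocks Adam proteases, read 8.32, 7.60 and 8.04 in the congenic rats and 6.44, 8.42 and 6.93 in the S rats. S1 and S3 were below all other rats and S2 was above them. The difference was 0.72 log2 (SE 0.52, 95% interval -0.54 to 1.98, adjusted p = 0.530 by limma). Without S2 it was 1.30 with an adjusted p = 0.0306 by limma, in a fit that called 2397 probes (9.99%) higher and 1725 (7.19%) lower and gave 5553 (23.1%) an adjusted p under 0.05. The call of Timp3 thus rests on whether S2 is included.

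S1 and S3 were the lowest pair in 4 of the 7 tested members, the genes just described, against 28.2% of all probes. The SD among S rats was above that among congenic rats in 6 of the 7 tested members, all but Timp1, against 70.8% of all probes. Smooth muscle markers moved with these genes: their mean, centred on the 6 arrays, was -1.39 log2 in S1, -0.50 in S3 and 0.67 in S2, and 0.36 to 0.49 in the congenic rats, with S1 and S3 the lowest pair in all 8 of 8 genes. Fibroblast markers, 9 of 9 tested, had means of -0.55 in S1, -0.21 in S3 and 0.32 in S2, and -0.10 to 0.57 in the congenic rats. The part of these cell types in the 4 results was not tested. In bulk tissue, fewer cells of a type and less RNA per cell cannot be told apart.

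**Figure D3:**
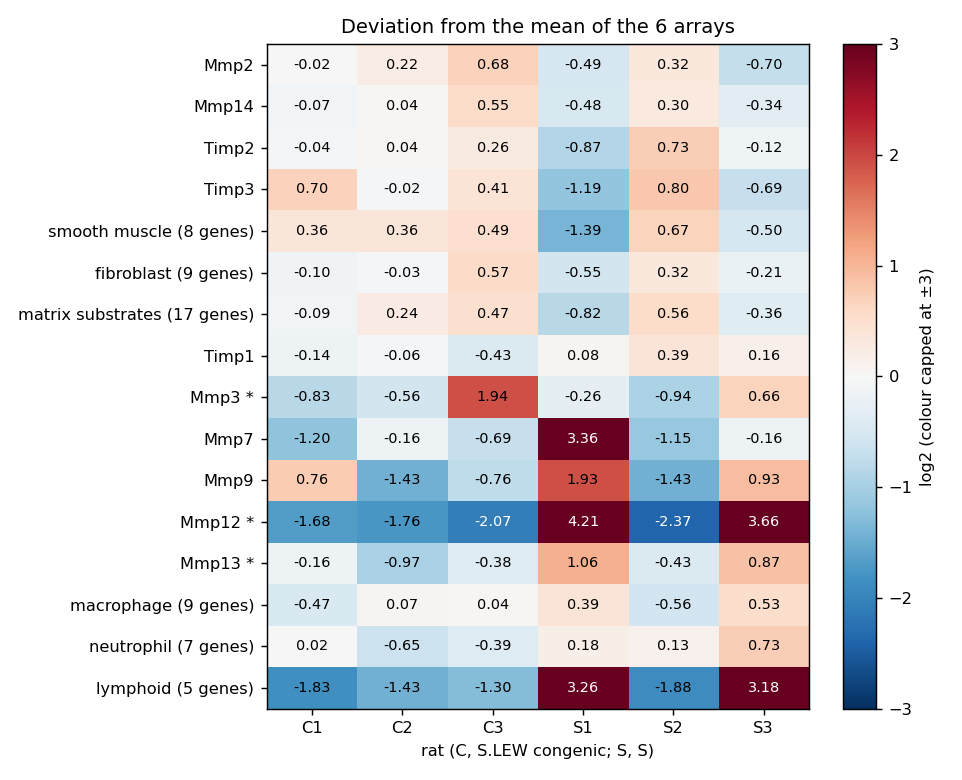
Log2 deviation of each rat (columns) from the mean of the 6 arrays for the members and for the means of 6 gene lists (rows); the number is printed in each cell, and an asterisk marks values normalized here from the scanner intensities. Mmp2, Mmp14, Timp2 and Timp3 are below 0 in S1 and S3 like the smooth muscle markers, and Mmp9, Mmp12 and Mmp13 are above 0 in S1 and S3 like the lymphoid markers.

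Mmp12, the elastase of macrophages, had the widest range of readings of the members, 6.59 log2 over the 6 rats. Its lowest reading, in S2, was not well above background. On the scale normalized here it read 4.48, 4.40 and 4.09 in C1, C2 and C3 and 10.37, 3.78 and 9.81 in S1, S2 and S3. It was well above background in S1 and S3 alone. S2 was not well above background, like the 3 congenic rats, and these 4 rats have no measured order among them. For a bound, each congenic array was set to its lowest signal that was well above background. The congenic mean was then at least 32.9-fold lower than the mean of S1 and S3. This figure is for those S rats alone and is not a bound for the strain, because S2 is left out. With S2 kept at its reading, the figure was 7.65-fold for all rats, 3.35-fold without S1 and 4.07-fold without S3. These are not bounds, because S2 was not well above background and its signal could be lower. Tested over all 30367 probes with no filter, the difference was -3.67 log2 (SE 1.78, adjusted p = 0.406 by limma). It was -2.48 without S1 (adjusted p = 0.755 by limma) and -2.75 without S3 (adjusted p = 0.805 by limma). Without S2 it was -5.77 (adjusted p = 0.00177 by limma), but that fit keeps only the S rats where the probe was well above background. All these fits use values that include those below background. Without S2 and without a filter, 4754 probes (15.7%) had an adjusted p under 0.05 by limma. S1, S2 and S3 were read in the same scan, and the cause of the gap between S2 and the other S rats was not tested.

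Mmp13, a collagenase, read 3.97, 3.16 and 3.75 in the congenic rats and 5.18, 3.69 and 5.00 in the S rats on the same scale. All 10 of its spots were well above background in S1 and in S3. No array of the congenic rats, nor S2, was well above background for this probe, and no fold is given because the mean of the S rats is below the lowest signal that counts as measured on the congenic arrays. Its adjusted p with no filter was 0.392 by limma, 0.733 without S1, 0.804 without S3 and 0.0378 without S2. The fit without S2 keeps only the S rats that were well above background. Against S1 and S3 alone the bound was at least 1.03-fold lower.

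Mmp9, gelatinase B, which neutrophils and macrophages store or secrete, read 4.67, 2.47 and 3.15 in the congenic rats and 5.84, 2.47 and 4.83 in the S rats in the deposited table. It too was well above background in S1 and S3 alone. On C1 only 1 of the 10 spots was well above background and the SD over spots was 0.78 log2, and the value for C1 was 3.24 when normalized here. The deposited difference was -0.95 log2 (SE 0.95, adjusted p = 0.634 by limma) and no fold is given, as for Mmp13. In the values normalized here the difference was -0.65 without S1 and -1.16 without S3 (adjusted p = 0.839 and 0.819 by limma). Without S2, which keeps only the S rats well above background, it was -2.40 (adjusted p = 0.0332 by limma). In the deposited values it was -1.90 without S2 (adjusted p = 0.102 by limma). All are read against congenic values below background. Against S1 and S3 alone the bound was at least 1.17-fold lower on the deposited scale. Within the scan that holds both strains, where C1 is the only congenic array, the difference was 0.29 in the deposited values and -1.09 in those normalized here, so its sign rests on the C1 value.

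Mmp7, matrilysin, an epithelial protease, read 5.32, 6.36 and 5.83 in the congenic rats and 9.88, 5.38 and 6.36 in the S rats. It was well above background on all 6 arrays. S1 stood far above the other 5, which lay between 5.32 and 6.36, and S3 was level with C2. The difference was -1.37 log2 (SE 1.12, 95% interval -4.06 to 1.32, adjusted p = 0.570 by limma), and it was -0.03 without S1. The Mmp7 difference is that of 1 rat.

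Mmp3, stromelysin 1, read 2.42, 2.69 and 5.19 in the congenic rats and 2.99, 2.31 and 3.91 in the S rats on the scale normalized here. It was well above background in C3 and S3, 1 rat of each strain. Its adjusted p with no filter was 0.843 by limma, and no direction is read from it.

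Values of the other cluster genes varied as well. Mmp8, the collagenase of neutrophils, read 3.03, 4.04 and 3.37 in the congenic rats and 8.80, 2.64 and 7.88 in the S rats, normalized here, and was well above background in S1 and S3 alone, as Mmp12 and Mmp13 were. Mmp10, stromelysin 2, was well above background in all rats but S2, where it read 3.18 against 5.77 to 6.78 in the other 5. Mmp1 was well above background in S1 and S3, but at 3.88 and 3.53 it was not above the readings of C1 (4.11) and S2 (3.93), which were not. Mmp20 and Mmp27 were well above background on no array, and no probe was matched to Mmp1b.

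By rank, S1 and S3 were the highest pair in 2 of the 7 tested members, against 25.8% of all probes. They were Mmp9 and Mmp7, but for Mmp7 S3 was level with C2 and only S1 was high. Several leukocyte genes were high in the same 2 rats. Lyz2, a lysozyme of myeloid cells, read 15.66 and 15.20 in S1 and S3 and 11.62 to 12.19 in the other 4. Of the macrophage markers, 9 of 10 were tested and their centred mean was 0.39 in S1, 0.53 in S3, -0.56 in S2 and -0.47 to 0.07 in the congenic rats. They did not move as one: Csf1r was called lower in the congenic strain (-1.42 log2, SE 0.47) with its brighter probe but not with the other (-0.25), and Cd163 (1.85, SE 0.51) and Mrc1 (1.03, SE 0.32) were called higher. The Csf1r call was lost when any rat but S2 was left out, the Mrc1 call without S1 or C3, and the Cd163 call held with each rat left out; neither Cd163 nor Mrc1 was called within the scan that holds both strains. Neutrophil markers, 7 of 9 tested, had a centred mean of 0.73 in S3, 0.18 in S1 and 0.13 in S2, and -0.65 to 0.02 in the congenic rats. Of these 7, 5 were well above background on all 6 arrays, and S100a8 was so on 3. None was called. Ncf1, with the smallest unadjusted p, read 13.71 in S1, 12.99 in S3 and 9.99 to 10.24 in the other 4. It was the only 1 of the 7 with S1 and S3 as the highest pair. Lymphoid markers, 5 of 10 tested, were highest in S1 and S3 in all 5, and lay between -1.83 and -1.30 in the congenic rats. The part of these cells in the Mmp7, Mmp9, Mmp12 and Mmp13 values was not tested.

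Timp1, a secreted inhibitor that cytokines induce in many cells, was the member whose strains did not overlap. It read 10.21, 10.30 and 9.93 in the congenic rats and 10.43, 10.74 and 10.51 in the S rats. All 3 congenic rats were below all 3 S rats, as in 5.33% of all probes, and here S2 was the highest S rat. The difference was -0.42 log2 (SE 0.19, 95% interval -0.88 to 0.05, unadjusted p = 0.0712 and adjusted p = 0.404 by limma), a change of 1.33-fold, below the 2-fold rule. The two-sided exact permutation test gave p = 0.1, the smallest it can give. The unadjusted p was 0.0463 by the methods' t-test, which put 10.8% of all probes under 0.05. Leaving out each rat in turn moved the Timp1 difference between -0.49 and -0.31, and within the scan that holds both strains it was -0.35. The 10 spots had an SD of 0.01 to 0.05 log2 on an array, below the SD of 0.19 among congenic rats and 0.16 among S rats.

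**Figure D4:**
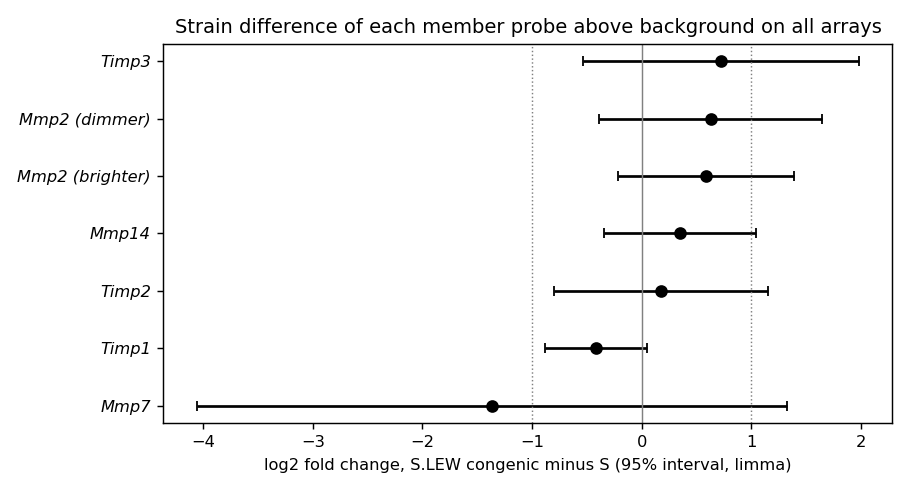
Log2 fold change of the S.LEW congenic against the S strain (x axis) for the 7 probes of 6 members that were well above background on all 6 arrays; points are estimates and bars 95% intervals from limma, and dotted lines mark a 2-fold change. Every interval includes 0, that of Timp1 is the narrowest (-0.88 to 0.05) and that of Mmp7 the widest (-4.06 to 1.32).

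**Figure D5:**
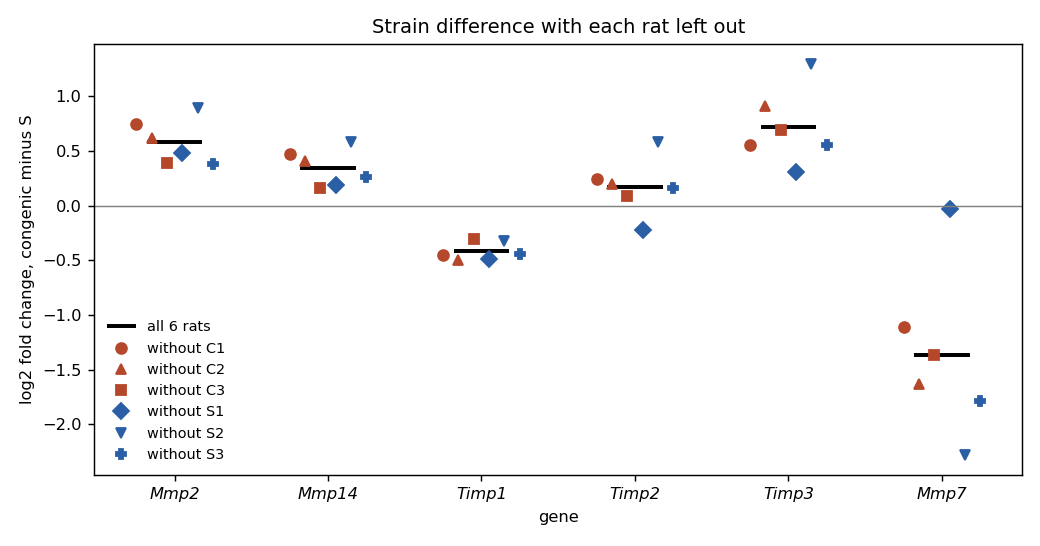
Log2 fold change of the congenic against the S strain (y axis) for 6 members (x axis) with all 6 rats (black line) and with each rat left out (points). Timp1 stays between -0.49 and -0.31, Mmp7 reaches -0.03 without S1, Timp2 is below 0 without S1, and Timp3 is highest, at 1.30, without S2.

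The genes whose pattern over the 6 arrays was nearest were sought for the 3 tested members with the widest range, among 10767 genes well above background on all arrays, by the root-mean-square (RMS) difference of centred log2 values. For Mmp7 they were Tnf (RMS 0.793), Csrnp1 (0.817) and Swap70 (0.841). Even these did not share its pattern: each was high in both S1 and S3, whereas Mmp7 was high in S1 alone. Tnf, for example, read 10.00 in S1, 8.74 in S3 and 5.65 to 6.56 in the other rats. For Mmp9 they were Tap1 (0.592), Man1a1 (0.614) and Btg1 (0.616). For Timp3 they were Map2 (0.0906), Pcdhgc5 (0.122) and Hes7 (0.132). The RMS is not scaled to a gene's range, so it is not compared between members, and Mmp9 was below background on 4 of the 6 arrays.

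Other genes of matrix breakdown were counted by list, each list whole. The median log2 difference over all probes was 0.01, and 3.23% of probes were called higher and 2.34% lower. Of 15 other metalloproteinases, 8 were tested, 1 was called higher and 0 lower, and all 8 differences were above 0, with a median of 0.55. With each rat left out, Mmp10 ranged from -0.41 to 1.39 and Mmp19 from -0.26 to 0.36, so their signs rest on single rats. The count also leaves out Mmp8, which is outside the table and was well above background in S1 and S3 alone. The one called was Mmp17, a membrane-anchored protease, at 10.01, 10.19 and 10.36 in the congenic rats and 8.28, 10.07 and 8.86 in the S rats. Its difference was 1.12 log2 (SE 0.45, adjusted p = 0.380 by limma), its second probe gave 1.38, and S1 and S3 were again the lowest pair. The call held without S2 (1.62) but was lost when any other rat was left out, with differences from 0.72. Mmp17 was also not called by the methods' t-test or with the scan as a block.

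Of 4 other inhibitors of metalloproteinases, 2 were tested, and 1 was called lower and 0 higher. It was A2m, alpha-2-macroglobulin, a plasma protein that traps proteases, which read 4.90, 5.32 and 6.06 in the congenic rats and 11.71, 6.30 and 10.85 in the S rats. All S rats were above all congenic rats, with S2 nearest to them and S1 and S3 far higher. The difference was -4.19 log2 (SE 1.36, adjusted p = 0.333 by limma), and it ranged from -5.85 (without S2) to -3.15 with each rat left out, with the call lost without S1, S3 or C1. A2m was also not called by the methods' t-test or with the scan as a block. Timp4, the other one tested, had a difference of 0.53 (SE 0.28).

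The plasminogen activators, serine proteases whose product plasmin can activate metalloproteinase proenzymes, were not called, with log2 differences of -0.08 for Plau (SE 0.19) and 0.18 for Plat (SE 0.40). Furin, which cuts the propeptide of Mmp14, had a difference of -0.32 (SE 0.22), and Bsg, a surface protein known to induce metalloproteinases, 0.72 (SE 0.27), and neither was called. These 4 genes were chosen after their values were seen.

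Of 19 Adam and Adamts proteases, 10 were tested and 0 were called, with a median of -0.20. The smallest unadjusted p was that of Adam19 (-0.87 log2, SE 0.25, adjusted p = 0.299 by limma), and its dimmer probe gave 0.03, so the probes disagree. Of 23 substrates such as collagens and fibronectin, 17 were tested and 0 were called, with a median of 0.50, 15 of 17 above 0, and S1 and S3 the lowest pair in 10. The smallest unadjusted p among them was that of Bgn, biglycan (-0.65 log2, SE 0.22, adjusted p = 0.336 by limma), with 0.13 from its dimmer probe. The substrates' mean was -0.82 in S1, -0.36 in S3 and 0.56 in S2, and -0.09 to 0.47 in the congenic rats, so this list too was low in S1 and S3. It is not independent of the fibroblast markers, which share Col1a1, Col1a2, Col3a1, Dcn and Lum with it.

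Of 21 cytokines and transcription factors that are known to induce metalloproteinases, 16 were tested, with 2 called lower, 0 higher and a median of -0.24. Tgfb1 read 5.65, 6.10 and 6.45 in the congenic rats and 8.87, 6.10 and 8.52 in the S rats (-1.76 log2, SE 0.73, adjusted p = 0.384 by limma). Ets1, a transcription factor that binds the ETS motif, read 5.18, 5.39 and 5.85 in the congenic rats and 10.08, 5.75 and 9.19 in the S rats (-2.87 log2, SE 1.07, adjusted p = 0.359 by limma). Both were highest in S1 and S3, with S2 among the congenic rats. Both calls held without S2 (-2.63 for Tgfb1 and -4.16 for Ets1) and were lost when any other rat was left out. Neither gene was called by the methods' t-test or with the scan as a block. The tested AP-1 genes of the list were not called. The difference was 0.13 log2 for Fos (SE 0.40), 0.16 for Fosl2 (SE 0.33) and 0.36 for Jun (SE 0.31). It was -0.31 for Junb (SE 0.24) and 0.20 for Jund (SE 0.26). Fosl1 was outside the table, and no probe was matched to Fosb.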

How the data were processed

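Colon RNA of 3 S.LEW congenic and 3 S rats was measured on single-color Agilent arrays (design build rn4). The authors read the images with Feature Extraction 11.0.1.1, and the deposited intensities are background-corrected but not normalized. The deposited log2 values are those the authors obtained by quantile normalization in GeneSpring, for transcripts detected in 3 or more of the 6 samples. The deposited flag columns gave the outlier and background calls. Here, flagged spots were left out, log2 intensities of a probe's spots averaged and quantile-normalized for probes outside that table. The lowest signal well above background was 3.41 to 5.63 log2 per array. Strains were compared with limma 3.58.1 (R 4.3.3), without covariates, over 23997 probes; the script was tested on simulated data. For a gene with several probes, the one with the highest mean was used. Probes were named through RefSeq accessions (GRCr8), 18005 of 30367. Replicates are separate rats, and precision is limited by their number. All members were named; in other lists, the genes called or else the one with the smallest p; some results are not reported here. The members and lists were chosen with earlier results of these data known. Alternatives were another source of values, scaling, background correction, filters, the methods' t-test, array weights, blocks and leaving out each rat; normexp (offset 50) used the median signal and was chosen after seeing the data.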

Additional observations from a re-analysis of the deposited data

How the results depend on the processing

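Of 109 recomputed strain differences of the 7 tested members, 102 kept their direction and their side of the call rule. The exceptions were Mmp9, which was 0.29 log2 with the scan as a block and within the scan that holds both strains (-1.09 in the values normalized here, so the reversal rests on the deposited C1 value) and called at -1.55 with array weights and -1.90 without S2; Timp2, which was -0.22 without S1 and at most 0.58 (without S2) with any rat left out; and Timp3, which was called at 1.03 with array weights and 1.30 without S2. The count of members called was therefore 1 higher and 1 lower with array weights, and 0 to 1 in each direction with each rat left out; the weights were 0.159 for S2 and 4.90 for S3. Over all probes, the count called higher was 359 with normexp, 515 with the methods' t-test, 443 within the scan, 2000 with array weights and 477 (without S3) to 2397 (without S2) with each rat left out. The count called lower was 342 with a filter on all 6 arrays, 178 with the t-test, 227 with the scan as a block, 187 within the scan, 1649 with array weights and 192 (without S3) to 1725 (without S2) with each rat left out. The share of calls that were higher was 58.0% in the comparison reported, 47.7% with 75th percentile scaling, 48.8% with normexp, 74.3% with the t-test and 70.8% with the scan as a block. The cause of these changes was not tested. The paper housed an S rat with a congenic rat in each cage, and which of these rats shared a cage is not given in the sources used here. Replicate numbers were therefore not taken as pairs. The correlations of deviations between rats of the same number were -0.02, -0.13 and -0.06, which cannot show whether cage mates share a number. The replicate block gave 794 probes higher, 744 lower and called 0 of these 7 members. With no filter, on values that include those below background, Mmp13 passed the call rule under the block (adjusted p = 0.458 by limma), and Mmp12 (-3.98, adjusted p = 0.282) and Mmp13 (-1.12, adjusted p = 0.248) passed it by limma with 75th percentile scaling. Normexp on the mean signal was not run. The scans hold 1 congenic rat with the S rats, so within-scan values rest on C1. Probes near background (Mmp3, Mmp9, Mmp12 and Mmp13) have only bounds or unordered values where they are dim.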

Other observations

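Some striated muscle and epithelial genes were called between the strains. Over all probes, 3.23% were called higher and 2.34% lower, and 0 had an adjusted p under 0.05 by limma. Of 13 colon epithelium markers, 11 were tested, all 11 differences were above 0, and 2 were called higher in the congenic strain. They were Car1, a carbonic anhydrase of the colon surface (3.41 log2, SE 0.73, adjusted p = 0.232 by limma), and Vil1, a protein of microvilli (1.01, SE 0.28, adjusted p = 0.283 by limma). The Car1 call held with each rat left out, and Vil1 fell under the 2-fold rule without S1, S3, C1 or C2, where it was at least 0.87. The mean of the epithelial markers, centred on the 6 arrays, was 0.23 to 0.75 in the congenic rats and -0.63 to -0.36 in the S rats, so S2 was low with S1 and S3 here. Of 7 striated muscle markers, 6 were tested and 3 were called lower in the congenic strain: Myh1, Mybpc1 and Tnnt3. Myh1, a myosin of skeletal muscle, read 2.47, 2.89 and 2.52 in the congenic rats and 6.46, 5.99 and 5.87 in the S rats (adjusted p = 0.0843 by limma). The difference was -3.56 log2 for Mybpc1 (SE 0.28, adjusted p = 0.116 by limma) and -1.39 for Tnnt3 (SE 0.35, adjusted p = 0.269 by limma). Myh1 and Mybpc1 were well above background on no congenic array. The list went both ways: Ckm (0.15, SE 0.51) and Acta1 (0.42, SE 0.59) were above 0, were not called and were highest in S2. In the called genes of both lists, as in Timp1, S2 was on the side of the other S rats.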
